A study of Mus musculus with 6 samples.

Results

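Maternally methylated imprinting control regions were examined in 3 mouse blood cell types by their MBD2 peaks. They were taken as 10 windows on mm9, placed around Gnas, Peg10, Mest, Peg3, Snrpn, Kcnq1ot1, Plagl1, Grb10, Igf2r and Impact. The windows were given by position (3 of 20 kb, 6 of 30 kb and 1 of 70 kb, 310 kb in all, on 7 autosomes). No measured value entered the rule, but the members were chosen with earlier results of these data known. Every deposited peak sharing at least 1 bp with a window was a member. This gave 22 of 85797 peaks in hematopoietic stem cells (HSC), 18 of 50638 in common myeloid progenitors (CMP) and 16 of 27839 in erythroblasts (ERY). Joined where they overlapped or touched, these peaks formed 21 of the 87514 merged regions of the 3 lists.

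Each cell type was represented by 1 library of DNA bound by MBD2, a protein that holds methylated CpG sites. All came from female C57BL/6 mice, and the bone marrow used for HSC and CMP was from adults. Both marrow populations were sorted from the lineage-negative fraction, HSC as Sca-1+ c-kit+ and CMP as Sca-1- c-kit+. The source of the ERY cells is not given in the sources at hand. The gates may hold other cells, and lists of methylated positions hold no expression markers against which to check the labels. No genetic change or treatment of the mice is named. The lists hold positions alone, the depth of the libraries is unknown, and with 1 library a cell type no difference has a replicate check or a test. Intervals below are 95% exact binomial (Clopper-Pearson). They cover counting error only, with peaks taken as independent.

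An imprinting control region carries DNA methylation on the copy inherited from one parent and not on the other. At the maternal class the mark is laid down in the oocyte, is protected after fertilisation by the zinc finger protein ZFP57 and its partners, and is then copied at each division of somatic cells. It commonly lies over the start of a gene or of a long noncoding RNA that is then read from the paternal copy. MBD2 binding does not tell the parental copies apart, so a peak here shows methylated DNA without saying on which copy.

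Promoters of 4 member genes are shown because their start sites are known to lie in or beside such a region, and because MBD2 can bind only where CpG sites are present. Each is the 250 bases before the start in the RefSeq promoter table (build GRCm38.p6), with every CpG in capitals. Mest is at chr6:30737803-30738052 (plus strand), Peg3 at chr7:6730420-6730669 (minus strand), Kcnq1ot1 at chr7:143296548-143296797 (minus strand) and Plagl1 at chr10:13090582-13090831 (plus strand). These positions are on another build than the peaks and were not placed against them.
Mest: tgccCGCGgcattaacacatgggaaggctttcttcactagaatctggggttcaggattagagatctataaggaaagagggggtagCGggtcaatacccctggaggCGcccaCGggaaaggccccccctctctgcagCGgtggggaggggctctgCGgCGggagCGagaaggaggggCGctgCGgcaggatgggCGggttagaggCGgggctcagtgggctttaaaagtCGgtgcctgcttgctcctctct
Peg3: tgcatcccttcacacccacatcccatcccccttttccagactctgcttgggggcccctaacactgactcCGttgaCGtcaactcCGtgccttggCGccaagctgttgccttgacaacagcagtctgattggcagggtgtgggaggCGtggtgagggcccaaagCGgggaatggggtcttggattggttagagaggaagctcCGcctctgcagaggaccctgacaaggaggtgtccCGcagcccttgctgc
Kcnq1ot1: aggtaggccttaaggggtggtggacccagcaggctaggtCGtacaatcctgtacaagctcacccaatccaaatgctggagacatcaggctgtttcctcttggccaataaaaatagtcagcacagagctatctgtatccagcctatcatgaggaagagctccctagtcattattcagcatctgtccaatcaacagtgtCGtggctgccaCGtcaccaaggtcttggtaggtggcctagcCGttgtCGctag
Plagl1: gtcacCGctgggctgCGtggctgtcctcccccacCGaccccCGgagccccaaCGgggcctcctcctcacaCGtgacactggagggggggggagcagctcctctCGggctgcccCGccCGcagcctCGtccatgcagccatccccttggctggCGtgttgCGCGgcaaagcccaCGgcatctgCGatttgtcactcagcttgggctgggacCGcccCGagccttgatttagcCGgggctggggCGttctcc

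The stretches differed in how many CpG sites they offer. Plagl1 had 19 in 250 bases, Mest 14, Peg3 8 and Kcnq1ot1 5. Where a gene had several entries, one with the most CpG sites was shown, and another entry of Mest had 7. Over the 32817 promoters of the table the median was 6, with quartiles of 2 and 16. Of the 10 member genes, 8 were matched in the table by symbol, with 17 promoters between them. More CpG sites than the median promoter were found in 12 of the 17. Some entries of Gnas and of Mest overlap, so the 17 are not independent. Their values ran from 2 at a promoter of Snrpn to 40 at one of Grb10. Peg10 and Impact were not matched. The hexamer TGCCGC, the core that ZFP57 binds when methylated, was searched on both strands. It was found in 3 of the 17 promoters, namely 2 overlapping entries of Mest with 2 matches each and the entry of Plagl1 with 1, against 8.68% of all promoters in the table. In the sequences above these matches read gcggca on the printed strand, whatever the case of the letters. A match is a string of letters and not a measured binding site.

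All 10 windows had a peak in each of the 3 cell types. Among all consecutive autosomal windows of 30 kb, 50.9% held an HSC peak, 37.6% a CMP peak and 24.1% an ERY peak. For windows of 20 kb the values were 40.9%, 28.8% and 17.7%, and for windows of 70 kb 72.3%, 59.5% and 42.2%. The merged region with the widest HSC peak of each window is called its leading region. Each of the 10 leading regions had a peak in HSC, CMP and ERY, and a region found in all 3 lists was present in 16.6% of 20 kb windows, 22.5% of 30 kb windows and 39.7% of 70 kb windows. Regions of that kind with at least 1143 bp covered in HSC, the lowest value of a leading region, were present in 4.67%, 6.53% and 12.8% of such windows. The windows were drawn around known loci and the consecutive windows were not, so these shares give the level of the genome and are no test.

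**Figure D1:**
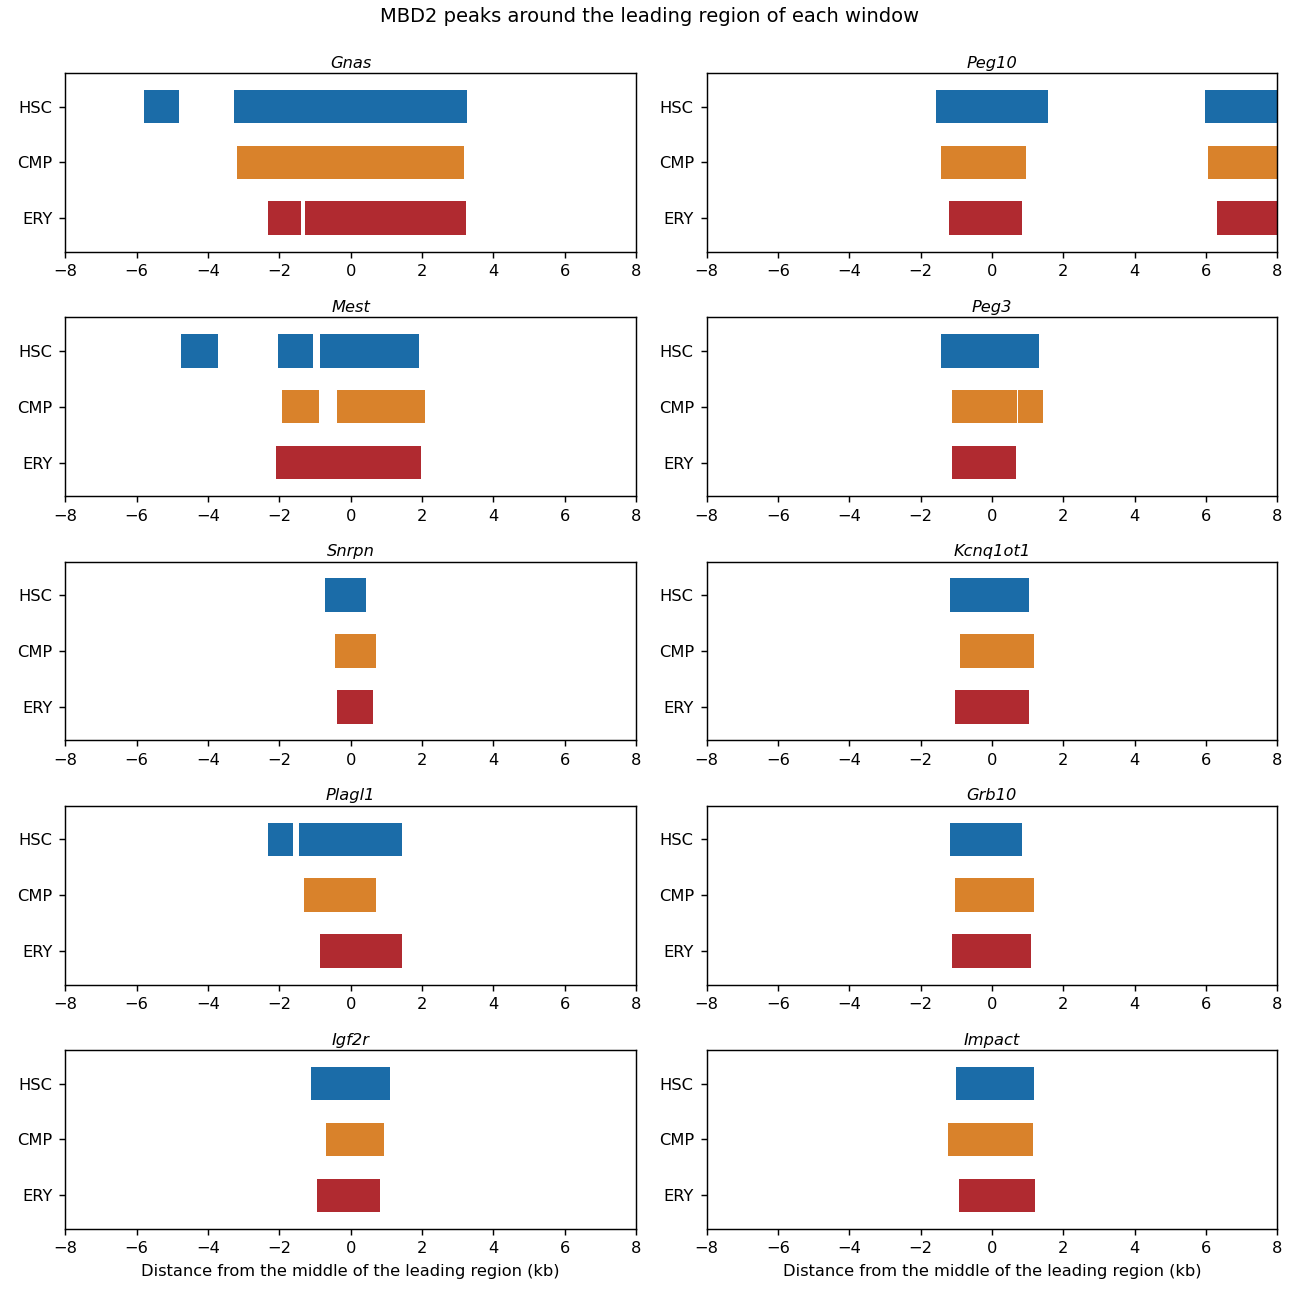
Positions of MBD2 peaks within 8 kb of the middle of the leading region in each of the 10 windows, with HSC in blue, CMP in orange and ERY in red (x axis, distance in kb; 1 library per cell type). Every panel has a peak of each list at its centre, and the smaller HSC peaks to the left at Gnas, Mest and Plagl1 have no CMP or ERY counterpart.

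The first group acts in growth control and hormone signalling. Igf2r encodes the receptor that clears the growth factor Igf2, and its control region lies in an intron, at the start of the noncoding RNA Airn. The window held 1 region, on chromosome 17 at 12933732 to 12935935, where peaks spanned 2204 bp in HSC, 1633 in CMP and 1761 in ERY. Grb10 encodes an adaptor that restrains insulin and growth factor signalling. Its single region, on chromosome 11 at 11925002 to 11927357, covered 2027 bp in HSC, 2223 in CMP and 2201 in ERY. Thus the HSC peak was the narrowest of the 3 at Grb10 and the widest of the 3 at Igf2r.

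Plagl1, also called Zac1, encodes a zinc finger transcription factor that slows cell growth. Its leading region on chromosome 10, at 12809313 to 12812197, covered 2878 bp in HSC, 2022 in CMP and 2296 in ERY. CMP thus stood at 70.3% of HSC, the lowest CMP share of the 10. In HSC a narrow peak of 707 bp ended 176 bp before this region, at 12808430 to 12809136, and a second of 837 bp lay at 12801811 to 12802647. Neither had a peak in CMP or ERY.

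Gnas encodes the alpha subunit of the stimulatory G protein, which links hormone receptors to cyclic AMP. Its domain is known to hold several differentially methylated stretches with their own promoters, of which the one at Nesp is methylated on the paternal copy, so this window is not purely maternal. The window had 5 regions, and 4 of them had peaks in all 3 cell types. The leading region, on chromosome 2 at 174120388 to 174126930, was 1 peak of 6543 bp in HSC and 1 peak of 6360 bp in CMP. In ERY it was split by a gap of 103 bp into peaks of 935 bp and 4520 bp, and the left edge lay 952 bp inside that of HSC.

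The next widest region at Gnas, at 174109189 to 174113201, covered 3783 bp in HSC, 3811 in CMP and 3804 in ERY. These are nearly equal lengths, with ERY at 101% of HSC. The region at 174152094 to 174155042 covered 2927 bp in HSC, 2832 in CMP and 2650 in ERY. A narrow region at 174098005 to 174098850 covered 823 bp, 777 bp and 774 bp in the same order. Only the region at 174117875 to 174118844 (970 bp in HSC) had no peak in CMP or ERY. Gene models of mm9 were not used, so the 3 wide regions are given by position and were not assigned to Nesp, Nespas or exon 1A.

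The second group is formed by noncoding RNAs and the Prader-Willi domain. Kcnq1ot1 is a long noncoding RNA, read from the paternal copy, that silences its neighbours in cis. Its leading region on chromosome 7, at 150480597 to 150482954, was of similar length in the 3 lists, with 2220 bp in HSC, 2082 in CMP and 2069 in ERY. A second region at 150491033 to 150492112 covered 1003 bp in HSC and 781 bp in CMP and had no ERY peak. It was the single region of the 21 with a peak in HSC and CMP and none in ERY. Snrpn encodes a small nuclear ribonucleoprotein, and its start lies in the control region of the Prader-Willi and Angelman domain. The Snrpn region, on chromosome 7 at 67149139 to 67150555, was the shortest leading region, with 1143 bp in HSC, 1152 in CMP and 994 in ERY. It was also isolated, with the next region holding an HSC peak 42784 bp away.

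The third group consists of protein-coding genes known to be read from the paternal copy. Peg10, a gene derived from a retrotransposon and needed in the placenta, had 3 regions, each present in HSC, CMP and ERY. The leading region on chromosome 6, at 4696456 to 4699590, covered 3135 bp in HSC, 2392 in CMP and 2044 in ERY, so its length was lower at each successive stage. The region at 4704006 to 4706218 covered 2088 bp, 2137 bp and 1806 bp in the same order. The last, at 4706623 to 4707753, covered 1131 bp in HSC, 733 in CMP and 782 in ERY.

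Mest encodes a protein of the alpha/beta hydrolase fold family. Its leading region on chromosome 6, at 30685017 to 30689201, was made of 2 peaks in HSC with 201 bp between them and of 2 peaks in CMP with 489 bp between them. In ERY 1 peak of 4060 bp spanned both, so ERY covered more bases than HSC (3754 bp) or CMP (3520 bp). Mest also had 2 regions with HSC peaks alone, at 30669459 to 30670555 and at 30682346 to 30683379. The first of these begins just outside the window and crosses its edge.

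Peg3 encodes a zinc finger protein. Its only region, on chromosome 7 at 6681411 to 6684289, covered 2756 bp in HSC, 2537 in CMP and 1796 in ERY. Cover in CMP was 2 peaks separated by 16 bp, and ERY had no peak over the right-hand one. Impact encodes a regulator of the translation kinase Gcn2. Its only region, on chromosome 18 at 13131043 to 13133484, covered 2194 bp in HSC, 2384 in CMP and 2129 in ERY, and 84.8% of it was covered in all 3 lists, the highest share of the 10.

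**Figure D2:**
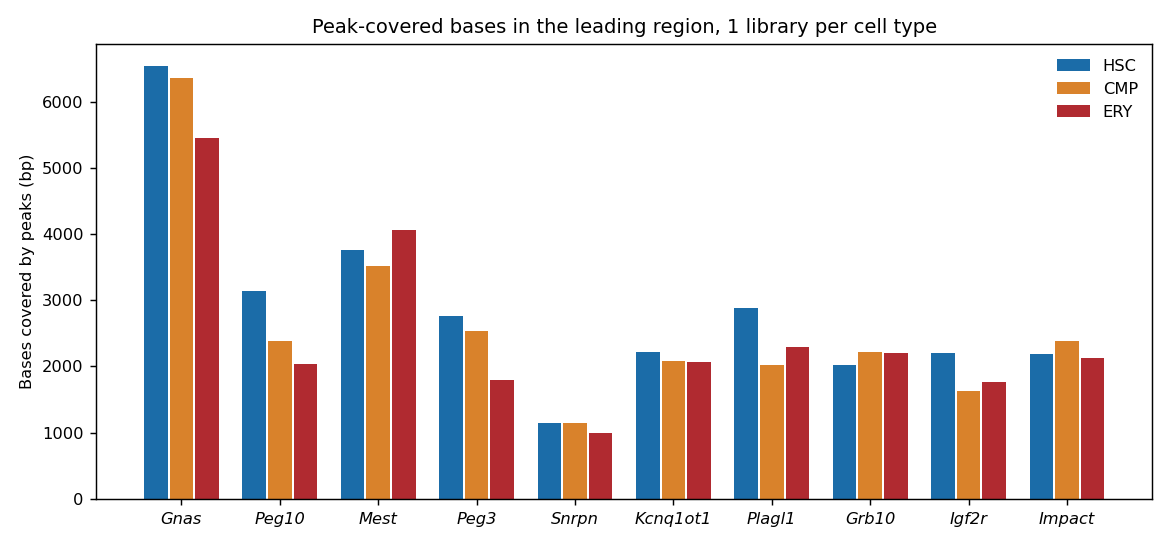
Bases covered by peaks (y axis, bp) in the leading region of each window for HSC, CMP and ERY, 1 library each and therefore without error bars. Values run from 994 bp (Snrpn, ERY) to 6543 bp (Gnas, HSC), and ERY is below HSC at 8 of the 10 loci, the exceptions being Mest and Grb10.

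The leading regions were wide by the standard of each list. Their median covered length was 2488 bp for HSC (range 1143 to 6543), 2303.5 bp for CMP (1152 to 6360) and 2099 bp for ERY (994 to 5455). The median peak of the HSC list was 748 bp, of the CMP list 818 bp and of the ERY list 788 bp. By its widest peak, the leading region was wider than 99% of its list at 8 of 10 loci in HSC, 6 of 10 in CMP and 7 of 10 in ERY. Snrpn was the lowest in all 3, being wider than 88.6% of HSC peaks, 89.1% of CMP peaks and 85.1% of ERY peaks. The HSC width chose the leading regions where a window had several, so the HSC value is a description. In 5 of the 10 windows there was 1 region to choose from.

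The HSC peaks of the windows were compared with all HSC peaks by the share kept in the later lists, a peak being kept when it shares 1 bp or more with a peak of the other list. Of the 22 HSC peaks, 17 (77.3%, interval 54.6 to 92.2%) were kept in CMP, against 57.1% of all HSC peaks. In ERY 16 of 22 (72.7%, 49.8 to 89.3%) were kept, against 30.9% of all HSC peaks. The interval for CMP includes the value of the whole list and that for ERY lies above it. From CMP to ERY, 16 of 18 peaks (88.9%, 65.3 to 98.6%) persisted, against 50.7% of the whole CMP list. The 2 without an ERY peak were the right-hand Peg3 peak and the second Kcnq1ot1 peak. Over the whole CMP list, ERY kept 78.5% of peaks of 1152 bp or more and 93.2% of those of 2000 bp or more. Both values lie inside the interval of the window peaks. In the other direction each of the 18 CMP peaks overlapped an HSC peak, beside 96.5% of the whole CMP list. Each of the 16 ERY peaks did as well, beside 95.3% of the whole ERY list, and each overlapped a CMP peak, beside 92.5%.

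Of the 21 merged regions, 15 (71.4%, interval 47.8 to 88.7%) had peaks in all 3 lists, while this class made up 28.5% of all regions. Among the 10333 regions with at least 1143 bp covered in HSC it made up 60.3%, beside 10 of 10 leading regions. That floor is the value of Snrpn, and 9 of the 10 leading regions had 2000 bp or more covered. Of all HSC peaks of 2000 bp or more, 84.3% were kept in ERY. Regions with an HSC peak alone numbered 5 (23.8%, 8.22 to 47.2%), against 40.7% of all regions. HSC with CMP but not ERY held 1 region, against 26.4% of all regions. The 4 classes without an HSC peak or with HSC and ERY alone had no member. They are small in the whole set, with 1.72% of regions in CMP alone, 1.16% in ERY alone, 1.2% in HSC and ERY, and 0.323% in CMP and ERY. All 6 HSC peaks without an ERY counterpart lay outside the leading regions, at Gnas, Mest, Kcnq1ot1 and Plagl1, and were 707 to 1097 bp wide. The 16 with an ERY counterpart had widths of 823 to 6543 bp and a median of 2212 bp.

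The share kept is given apart for the leading regions and the rest of the windows. The leading regions were chosen by HSC width, which goes with keeping, so the split is a description and no test. The widest HSC peak of each leading region was kept in CMP and in ERY at 10 of 10 loci (interval 69.2 to 100% for both). The remaining HSC peak of a leading region, the 958 bp one at Mest, also overlapped peaks in both. It belongs to the leading region only because an ERY peak joins it, so it was left out of this count. Merging also keeps it out of the other peaks of the windows, whose shares are lower for that. Outside the leading regions CMP kept 6 of 11 HSC peaks (54.5%, 23.4 to 83.3%) and ERY 5 of 11 (45.5%, 16.7 to 76.6%). Both intervals overlap that of the leading regions. Over the whole HSC list, the 9742 peaks of 1143 bp or more were kept in CMP in 84.4% and in ERY in 59.9% of cases. The 962 peaks of 2000 bp or more were kept in 96.2% and 84.3%. Of these values, 59.9% lies below the interval of the leading regions and the other 3 lie inside it, so keeping at the leading regions could not be told from that of HSC peaks of 2000 bp or more. In HSC 9 of the 10 leading regions had 2000 bp or more covered, Snrpn being the exception.

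**Figure D3:**
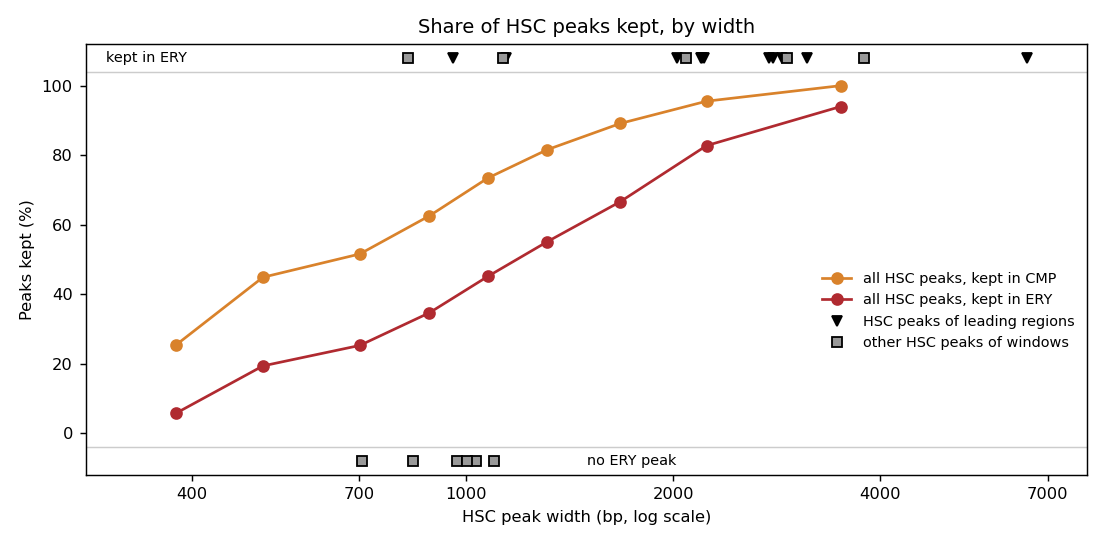
Share of all HSC peaks kept in CMP (orange) and ERY (red) by HSC peak width (x axis, log scale; points at the median width of each of 9 width classes), with the window peaks marked above if kept in ERY and below if not. The curves rise with width, the 11 peaks of the leading regions are all in the upper strip (the 958 bp one at Mest by the ERY peak that joins it to its region), and the 6 peaks without an ERY counterpart are 707 to 1097 bp wide.

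The length covered in ERY was set against that in HSC. The median of ERY as a share of HSC covered bases was 85.2% over the 10 regions (range 65.2 to 109%, SD 15.3 points between regions). Over the 982 regions of the genome with peaks in all 3 lists and 2000 bp or more covered in HSC, the median was 69.1%, with quartiles of 47.3 and 86.8%. Over all 24935 shared regions, most of them narrower, it was 89.4%, so the leading regions stood above the wide regions and below the whole set. Over the 6226 shared regions with at least 1143 bp covered in HSC it was 71.0%. The wide regions were picked by HSC covered bases, the divisor of this share, whereas the windows were placed by locus. How far that choice lowers the value of the wide regions was not tested. It bears on the other comparisons with wide regions below as well. Above the 69.1% of the wide regions were 8 of the 10 leading regions, and Peg10 and Peg3, both at 65.2%, were below it. For CMP the median share was 93.8% (70.3 to 110%, SD 13.9 points), beside 90.0% in the same wide regions and 100.1% in all shared regions. ERY covered fewer bases than HSC at 8 of 10 leading regions, against 91.4% of wide shared regions and 65.1% of all shared regions. CMP covered fewer than HSC at 7 of 10, against 76.9% and 49.8%. No test was run on these medians.

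Over the whole windows, peaks covered 45254 bp in HSC, 37376 bp in CMP (82.6% of HSC) and 34621 bp in ERY (76.5% of HSC). Over the complete lists CMP covered 62.6% and ERY 33.0% as many bases as HSC. Gnas contributed the largest part, with 15046 bp in HSC, 13780 in CMP and 12683 in ERY. Without the Gnas window the shares were 78.1% and 72.6%.

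Much of each leading region was covered in every cell type. A median of 72.4% of each leading region (54.4 to 84.8%) was covered in all 3 lists, against 59.9% in wide shared regions and 63.8% in all shared regions. The stretch covered in all 3 lists ran at Grb10 from 11925135 to 11927028, at Igf2r from 12934138 to 12935658 and at Kcnq1ot1 from 150480873 to 150482805. At Impact it ran from 13131356 to 13133426, at Snrpn from 67149470 to 67150281 and at Peg3 from 6681737 to 6683527. At Peg10 it ran from 4696811 to 4698854, and at Plagl1 from 12809902 to 12811471, where it was the smallest part of its region. At Gnas and Mest it was interrupted by the gaps given above.

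The edges of the leading regions did not move evenly. The left edge in CMP lay to the right of that in HSC at 9 of 10 loci, the exception being Impact. The median shift over all 10 was 138 bp. The left edge in ERY did so at 9 of 10, the exception being Mest, with a median shift over all 10 of 243.5 bp. In wide shared regions the left edge lay to the right in 67.0% of cases for CMP and 82.9% for ERY. The median shifts there were 70.5 bp for CMP and 213 bp for ERY. Over all 24935 shared regions the left edge lay to the right in 51.0% of cases for CMP and 60.9% for ERY. The right edge in ERY lay to the right of that in HSC at 5 of 10 leading regions. This was so in 19.6% of wide shared regions and 38.2% of all shared regions. For CMP the right edge did so at 5 of 10, beside 32.1% and 48.5%. At Snrpn, Grb10 and Mest both later peaks ended to the right of the HSC peak, by 182 and 274 bp (ERY and CMP) at Snrpn, 239 and 329 bp at Grb10 and 39 and 164 bp at Mest.

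The surroundings of the windows were kept in shares whose intervals include the level of the genome. Within 100 kb beyond the window edges lay 90 HSC peaks. CMP kept 43 of them (47.8%, interval 37.1 to 58.6%), lower than the 57.1% of the whole list, which lies near the upper end of the interval. ERY kept 29 of the 90 (32.2%, 22.8 to 42.9%), beside 30.9%. The numbers ranged from 1 peak around Snrpn, of 480 bp, to 15 around Igf2r, of which 8 were kept in CMP and 3 in ERY. ERY kept 3 of 5 around Grb10, 4 of 9 around Peg3 and around Plagl1, and 5 of 13 around Impact. It kept 3 of 10 around Peg10, 3 of 11 around Gnas and around Kcnq1ot1, 1 of 6 around Mest and 0 of 1 around Snrpn. The surroundings of Igf2r include the region at 12961441 to 12963271, at the promoter of Igf2r, which is described below as an imprinted locus. They are thus not free of imprinted regions.

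**Figure D4:**
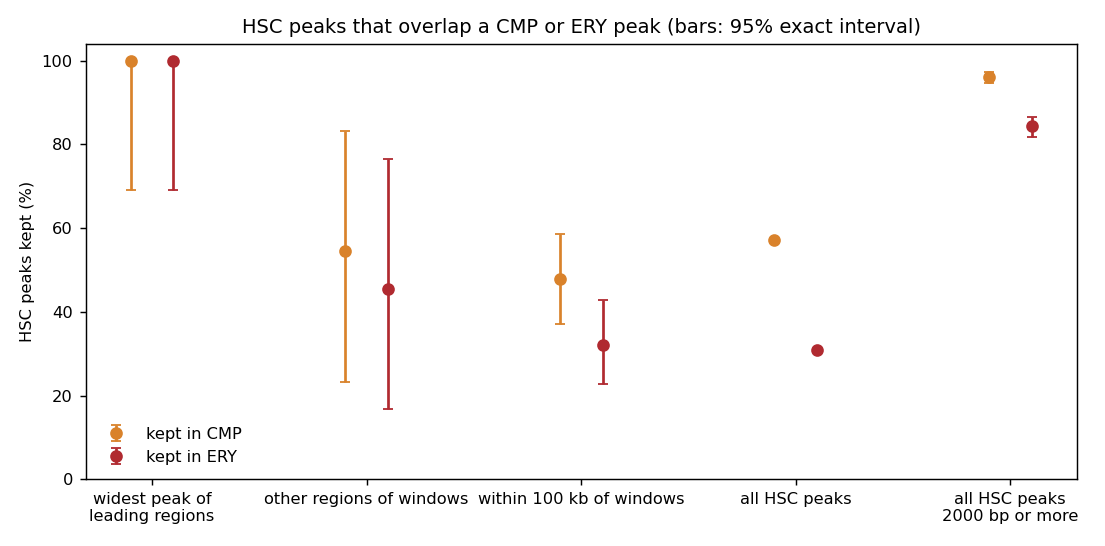
Percent of HSC peaks that overlap a CMP (orange) or ERY (red) peak, with 95% exact binomial intervals, for the widest peak of each leading region (10 peaks), the other regions of the windows (11), the surrounding 100 kb (90), all HSC peaks (85797) and HSC peaks of 2000 bp or more (962). The leading regions stand at 100%, near the wide peaks, and the intervals of the surroundings include the values of all HSC peaks.

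Other imprinted loci were read in the same way from windows written down by locus on mm9. For 8 further maternally methylated loci (Nnat, Mcts2, Nap1l5, Zrsr1, Inpp5f, Peg13, Slc38a4 and Cdh15) the leading region had peaks in all 3 lists at 8 of 8, beside 28.5% of all regions and 64.7% of the 7307 regions with at least 1255 bp covered in HSC, their lowest value. No interval was computed for the 8 of 8, and its distance from these shares was not tested. The HSC covered length of these 8 leading regions had a median of 1900 bp (1255 to 2799). Over the whole HSC list, ERY kept 66.6% of peaks of 1500 to 2000 bp and 82.8% of those of 2000 to 3000 bp. The median of ERY as a share of HSC covered bases at the 8 was 95.7% (68.5 to 113%). Counting every peak of these windows, CMP kept 21 of 31 HSC peaks (67.7%, interval 48.6 to 83.3%) and ERY 15 of 31 (48.4%, 30.2 to 66.9%). Both intervals include the shares of the whole HSC list, 57.1% and 30.9%. The Cdh15 window kept 5 of 6 HSC peaks in CMP and 1 of 6 in ERY, and the 1 was its leading region (1255, 1315 and 1341 bp in HSC, CMP and ERY).

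At 3 paternally methylated loci CMP kept 7 of 11 HSC peaks (63.6%, interval 30.8 to 89.1%) and ERY 4 of 11 (36.4%, 10.9 to 69.2%), and these intervals overlap those of the maternal loci. The leading region had peaks in all 3 lists at the intergenic region between Dlk1 and Meg3 (2602, 1934 and 1725 bp in HSC, CMP and ERY) and at Rasgrf1 (1319, 1190 and 962 bp). In the H19 window 5 HSC peaks were followed by 3 CMP peaks and 1 ERY peak, and the leading region had 1178 bp in HSC, 900 bp in CMP and no ERY peak. This H19 region was chosen by HSC width and not placed against gene models, so it need not be the control region. In the Igf2r domain, the promoter of Igf2r itself gains methylation on the paternal copy after fertilisation. It had a region on chromosome 17 at 12961441 to 12963271 that covered 1743 bp in HSC, 1598 in CMP and 1465 in ERY. At the promoter of Cdkn1c, which is silenced in cis by Kcnq1ot1, a region covered 2989 bp, 3312 bp and 3082 bp in the same order. Differences between these classes of loci were not tested.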

How the data were processed

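Per the labels' protocols, MBD2-bound DNA was read on the Illumina Genome Analyzer, with single-end reads of 36 bp. The authors deposited 1 list of peak positions per cell type, exported from a genome browser per the file headers, on mm9 per the submitters' processing notes. No source used here gives the aligner, the peak caller or its threshold. The 3 supernatant libraries of the 6 samples are not analysed here.

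Starts were shifted by 1 to print 1-based positions. Peaks of the 3 lists that overlapped or touched were merged, and the merged region with the widest HSC peak in a window is its leading region. All 10 windows and each leading region are named. Any region that lacked a peak in a list is named too. The members, the lists of other loci and the comparisons were chosen with earlier results of these data known. The windows of the other loci were written from knowledge of mm9, since the gene table at hand is of GRCm38. The surrounding 100 kb, the edges and the width classes were added after seeing the data. Alternatives covered the overlap rule, window bounds, merging and the wider 50% of each list. Overlaps computed with Python 3.11.15, numpy 2.4.6 and scipy 1.17.1 gave the same counts as bedtools 2.31.1 and were tested on simulated data. Figures used matplotlib 3.10.9.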

Additional observations from a re-analysis of the deposited data

How the results depend on the processing

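With all windows used, 53 of 60 alternative values stayed inside the interval (shares), within the SD between leading regions (covered bases) or within 1.5 times (counts). Some of these could not move: merging leaves the covered bases of the windows unchanged, so those values are no check. Each of the 10 windows had a peak in each list under every alternative run. With extended windows or merging this was fixed in advance, since neither removes a peak. Splitting the windows moved both shares that start from HSC. The leading regions alone gave 100% for HSC to CMP and for HSC to ERY, including the Mest peak that an ERY peak joins to its region, and the other peaks gave 54.5% and 45.5%. This split was chosen after seeing the data and follows HSC width. Extending the windows by 10 kb raised the regions with an HSC peak alone from 5 to 11, as more of the surroundings entered. In the wider 50% of each list ERY kept 100% of the CMP peaks and the regions with HSC and CMP alone numbered 0, by construction, since the 2 narrow CMP peaks drop out.

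Leaving out each window in turn kept 127 of 130 values within those limits. Among the 130 are the numbers of windows with a peak in each list. These were bound to be 9 beside 10, which is within 1.5 times, so they are no check. Without Mest or without Plagl1 the regions with an HSC peak alone numbered 3 (range 3 to 5), and without Kcnq1ot1 those with HSC and CMP alone numbered 0 (range 0 to 1). The share of HSC peaks kept ranged from 73.7% to 84.2% in CMP and from 68.4% to 78.9% in ERY. No paired analysis was possible because each cell type has 1 library. With no read depth, how far the sensitivity of each list sets these values was not tested.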
